A study of Mus musculus with 126 samples.

Results

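The 33 genes described here belong to glycolysis and the response to hypoxia, and were read in prostate tumors that arose in (TRAMP × NOD/ShiLtJ) F2 mice. They were listed by name: glucose transport and the hexokinases, the enzymes of glycolysis, the handling of pyruvate and lactate, the PFKFB regulators, the hypoxia-inducible factor (HIF) alpha subunits and a group of hypoxia response genes. Each was read from its probe set with the highest mean, and 30 of the 33 had a probe set annotated to that gene alone, among 22180 genes so covered by the array. Gpi1 had none, and Aldoa and Ankrd37 lay on probe sets that name a second gene, so no value is given for these 3. All 30 passed the filter on low values.

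TRAMP is a transgene in which the probasin promoter, active in prostate epithelium, expresses SV40 T antigen, and tumors with neuroendocrine features are known in this model. The F2 males descend from TRAMP on C57BL/6J and NOD/ShiLtJ parents and segregate both strains' alleles. All 126 arrayed males carried the transgene, no tumor-free prostate was arrayed, and each male was killed at 30 weeks or earlier at a humane endpoint, so age at collection varied and cannot be told apart from burden by the labels. Each male gave 1 tumor and 1 Affymetrix Mouse Gene 2.0 ST array. Tumors weighed 4.59 ± 3.01 g (tumor burden, mean and SD, n = 126), with a median of 4.54 g and extremes of 0.1 and 14 g. Of these, 15 weighed under 1 g and 111 weighed 1 g or more. The labels give metastasis for 87 males and no metastasis for 39.

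Glycolysis breaks glucose down to pyruvate. Cells short of oxygen reduce the pyruvate to lactate rather than burn it in mitochondria, and many tumors do so even with oxygen present. HIF, a pair of an oxygen-labile alpha subunit and a stable partner, is destroyed in oxygen after prolyl hydroxylases mark the alpha subunit for the VHL ubiquitin ligase; without oxygen it binds the letters ACGTG or GCGTG, the core of the hypoxia response element, and raises glucose transporters, glycolytic enzymes, angiogenic factors and its own hydroxylases. Much of this control acts on the protein of the alpha subunits, which RNA levels do not show.

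Promoter windows of 5 of the genes on which the results turn are printed here, to show where the core letters of that element fall. Pgk1 and Ldha were the most strongly correlated pair of members, Bnip3 was the gene most correlated with the rest, Slc16a3 had the steepest rise with burden and Hk2 the largest shift in small tumors. The windows are from RefSeq on build GRCm38.p6, each 300 bases from 250 before to 50 after the start of a transcript, and capitals mark ACGTG or GCGTG on either strand.
Pgk1, chrX:106186850-106187149, plus strand: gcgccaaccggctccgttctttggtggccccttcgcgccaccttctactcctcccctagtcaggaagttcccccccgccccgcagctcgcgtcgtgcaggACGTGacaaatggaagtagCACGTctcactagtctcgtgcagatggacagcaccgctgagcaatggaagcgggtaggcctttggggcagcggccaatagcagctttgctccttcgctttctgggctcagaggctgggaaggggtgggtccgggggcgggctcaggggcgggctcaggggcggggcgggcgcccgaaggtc
Ldha, chr7:46845554-46845853, plus strand: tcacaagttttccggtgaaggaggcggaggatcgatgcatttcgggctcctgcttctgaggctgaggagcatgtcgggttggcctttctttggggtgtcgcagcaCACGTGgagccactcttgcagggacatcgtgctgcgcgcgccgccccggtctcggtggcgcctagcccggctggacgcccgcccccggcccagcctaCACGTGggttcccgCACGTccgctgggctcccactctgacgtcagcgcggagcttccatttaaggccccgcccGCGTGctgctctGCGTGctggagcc
Bnip3, chr7:138909457-138909756, minus strand: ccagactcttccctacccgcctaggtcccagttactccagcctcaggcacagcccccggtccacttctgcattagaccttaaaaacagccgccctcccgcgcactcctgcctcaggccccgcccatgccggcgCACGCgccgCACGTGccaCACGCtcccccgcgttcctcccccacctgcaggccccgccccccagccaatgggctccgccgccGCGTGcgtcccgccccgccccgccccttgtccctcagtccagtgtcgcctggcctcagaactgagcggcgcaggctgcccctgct
Slc16a3, chr11:120948817-120949116, plus strand: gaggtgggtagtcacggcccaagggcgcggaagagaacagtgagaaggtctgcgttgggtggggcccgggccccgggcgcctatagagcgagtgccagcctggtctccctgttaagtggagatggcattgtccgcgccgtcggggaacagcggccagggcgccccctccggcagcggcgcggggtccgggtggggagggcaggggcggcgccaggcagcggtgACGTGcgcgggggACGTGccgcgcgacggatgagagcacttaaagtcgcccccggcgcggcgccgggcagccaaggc
Hk2, chr6:82774405-82774704, minus strand: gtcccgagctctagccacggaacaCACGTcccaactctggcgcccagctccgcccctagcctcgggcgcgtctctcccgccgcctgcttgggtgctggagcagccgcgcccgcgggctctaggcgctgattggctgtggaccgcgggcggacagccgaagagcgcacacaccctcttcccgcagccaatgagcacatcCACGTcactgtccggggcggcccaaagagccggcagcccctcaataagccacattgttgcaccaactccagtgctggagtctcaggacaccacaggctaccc

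Ldha held 7 matches and Bnip3 5, while Pgk1, Slc16a3 and Hk2 held 2 each. Among them were 2 E-boxes (CACGTG) in Ldha and 1 in Bnip3, each of which holds ACGTG on both strands and counts as 2 matches. A window was given for 30 of the 33 genes, which lacked Epas1, Ndrg1 and Bhlhe40. In the first window listed, 23 of 30 (76.7%) held the letters at least once and 17 (56.7%) at least 2 times, against 43.8% and 20.8% of the first windows of 27025 genes. Promoters of these genes are rich in G and C, with a median of 65% against 52.7%. Among 7100 genes whose first window resembled the middle of the members in G and C content, the shares were 65.1% and 35.9%. Over any listed window, 14 of the 15 genes with a window that rose with burden held the letters, as did 12 of the 12 that did not rise. In this count the 10 members with several windows could match in any of them. The share of all genes over any window is not given, so the first-window shares above are no measure for it. A match describes the letters only.

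Array medians lay between 5.84 and 6.05 on the log2 scale. The array of mouse N1202, from a 0.4 g tumor without metastasis, stood apart, with a mean correlation of 0.88 to the other arrays, against 0.915 for the next lowest and a median of 0.97. The labels name no batch. The mouse tag numbers in them were therefore split into 4 ranges, with 18 males below tag 500, 21 up to tag 800, 39 up to tag 1000 and 48 at or beyond it, and whether these ranges follow litters or dates is not stated. The males are separate animals of one cross, and p-values measure the spread among them.

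Across all 126 tumors, 16 of 30 members rose with burden (limma, adjusted p under 0.05 over 23507 probe sets), where 20.3% of all probe sets rose. A single member, Epas1, fell, against 16.4% of all probe sets. The slope was above 0 for 26 of 30, with a median of 0.0354 log2 per g. It was above 0 for 59.1% of all probe sets, with a median of 0.0036. In tumors of 1 g or more, 12 of 30 still rose and none fell, against 3.7% and 4.54% of all probe sets. There 28 of 30 slopes were above 0, with a median of 0.0379, against 57.9% of all probe sets and a median of 0.0027. With the limit at 2 g (n = 96) no member passed, nor did any of the 23507 probe sets. There 9 members and 10.6% of all probe sets had an unadjusted p under 0.05 (limma). Of the 30 slopes 26 were above 0, with a lower median of 0.0268. Values of tumors under 1 g and of 8 g or more overlapped for every member whose ranges are given here.

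**Figure D1:**
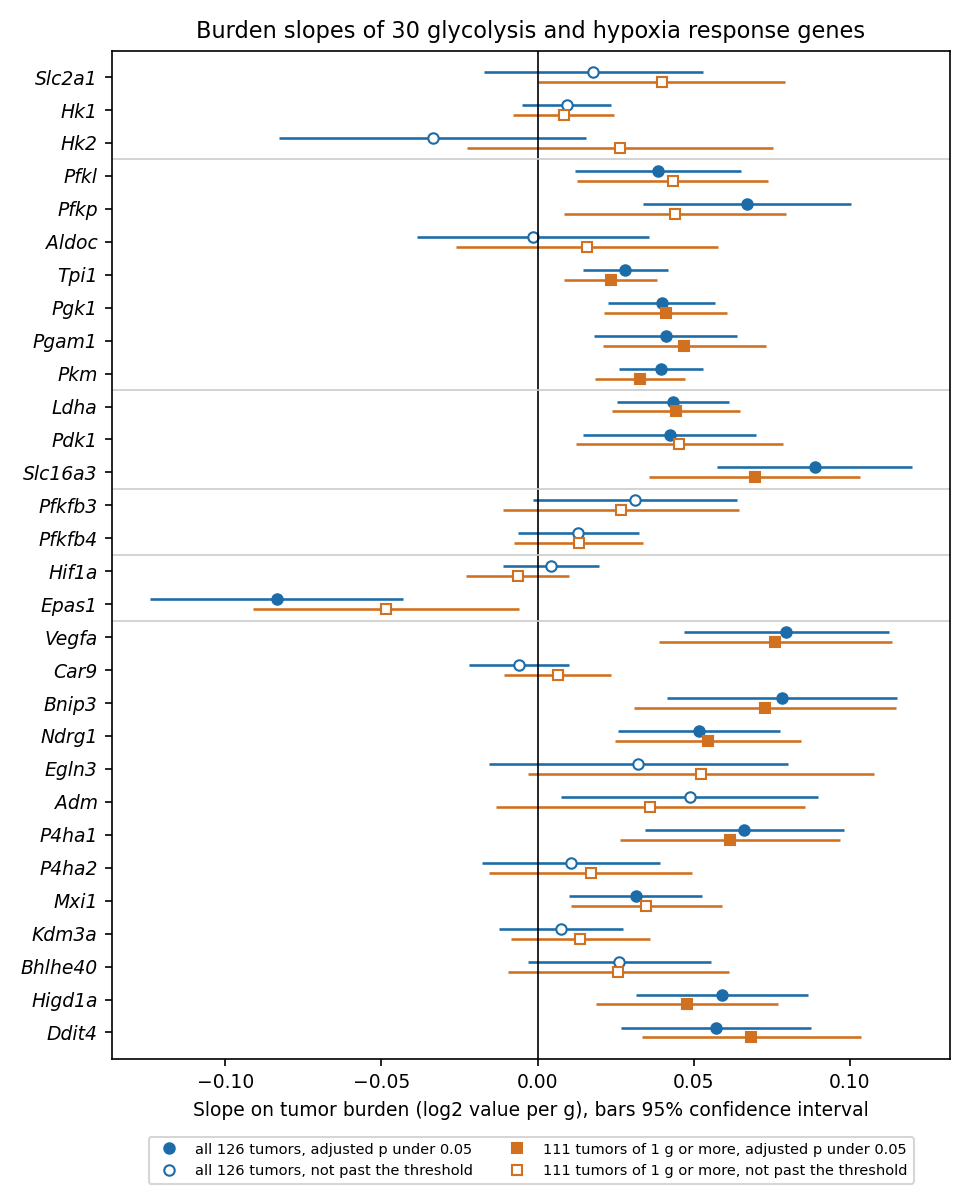
Slope of each gene's log2 value on tumor burden (x axis, log2 per g) with its 95% confidence interval, in all 126 tumors (circles) and in the 111 of 1 g or more (squares), by role from glucose uptake at the top to hypoxia response genes at the bottom. Filled symbols passed the adjusted threshold: 16 to the right of 0 and Epas1 to the left in all tumors, and 12 to the right at 1 g or more.

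None of the 3 genes that bring glucose into the cell and trap it there passed the threshold for a burden slope. Slc2a1, the glucose transporter GLUT1, had a median log2 value of 9.13 in tumors under 1 g (8.14 to 10.49, n = 15) and 9.38 in tumors of 8 g or more (8.05 to 10.27, n = 19), and 14 of the 15 light tumors lay within the range of the heavy ones. Its slope was 0.0179 ± 0.0178 log2 per g (SE, adjusted p = 0.455, limma) in all tumors and 0.0397 ± 0.0199 (adjusted p = 0.199) at 1 g or more. Hk1, the hexokinase of most tissues, had a slope of 0.0093 ± 0.0072 (adjusted p = 0.321). In tumors of 1 g or more Hk1 had 0.0084 ± 0.0082 (adjusted p = 0.550).

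Hk2, the inducible hexokinase that binds to mitochondria, had a higher median in the smallest tumors. It ran from 6.28 to 9.89 with a median of 8.22 in tumors under 1 g, and from 6.01 to 9.93 with a median of 7.05 in the 111 heavier ones. In a fit that also held burden, tumors under 1 g stood 1.05 ± 0.25 log2 above the line (limma, adjusted p = 0.00157). Of the 30 members 2 had such a step upward, against 11.1% of all probe sets, and none a step downward, against 12%. The other was Epas1. Hk2 among the small tumors was not uniformly high, since its lowest value there, 6.28, was below the median of the heavier tumors. Its slope was -0.0336 ± 0.0249 over all tumors (adjusted p = 0.299) and 0.0265 ± 0.0248 at 1 g or more (adjusted p = 0.534). Small tumors also had higher epithelial junction markers, 13 of 15 of which had the same upward step, and the part of these cells in the Hk2 values was not tested.

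Of the 7 glycolytic enzymes among the members, 6 rose with burden in all tumors and 4 in those of 1 g or more. Of all probe sets 20.3% and 3.7% rose. Both counts include Pgam1, whose probe set is of uncertain place, as described below. The second Pgam1 probe set passed in neither set of tumors (limma, adjusted p = 0.204 and 0.156). Pkm, pyruvate kinase of muscle and tumors and the last step of the chain, had the smallest p of the members. Its log2 values were 10.62 to 11.72 with a median of 11.11 under 1 g, and 11.14 to 11.74 with a median of 11.52 at 8 g or more. Of the 15 light tumors 8 lay below every heavy one, and 3 of the 19 heavy tumors lay above every light one. The slope was 0.0395 ± 0.0068 log2 per g (adjusted p = 3.81e-06), or 1.15-fold per 5 g (95% confidence interval 1.09 to 1.20). At 1 g or more it was 0.0328 ± 0.0073 (adjusted p = 0.00425).

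Pgk1, phosphoglycerate kinase, which makes the first ATP gained in the chain, ran from 11.14 to 12.10 (median 11.74) under 1 g and from 11.51 to 12.45 (median 12.06) at 8 g or more. Of the 19 heavy tumors 7 lay above every light one, and 6 of the 15 light ones below every heavy one. Its slope was 0.0398 ± 0.0086 in all tumors (adjusted p = 0.00014) and 0.0410 ± 0.0099 at 1 g or more (adjusted p = 0.00706). Tpi1, triose phosphate isomerase, had slopes of 0.0281 ± 0.0069 (adjusted p = 0.000721) and 0.0234 ± 0.0075 (adjusted p = 0.0375). It was the least steep of the 16 that rose, with medians of 11.13 under 1 g and 11.41 at 8 g or more.

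The phosphofructokinases Pfkp and Pfkl, which commit sugar to glycolysis, rose in all tumors and did not pass at 1 g or more. The platelet type Pfkp had a median of 9.98 (8.43 to 11.11) under 1 g and 10.62 (9.93 to 11.33) at 8 g or more, with a slope of 0.0672 ± 0.0169 in all tumors (adjusted p = 0.0009) and 0.0439 ± 0.0179 at 1 g or more (adjusted p = 0.105). The liver type Pfkl had medians of 9.21 and 9.62 and slopes of 0.0385 ± 0.0134 (adjusted p = 0.0169) and 0.0433 ± 0.0154 (adjusted p = 0.0614). For Pfkl the slope was no lower at 1 g or more, and its error was larger. Aldoc, the aldolase of brain, had a slope of -0.0015 ± 0.0188 (adjusted p = 0.960).

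Pgam1, phosphoglycerate mutase, had a slope of 0.0410 ± 0.0116 (adjusted p = 0.00304) in all tumors and 0.0470 ± 0.0131 (adjusted p = 0.0166) at 1 g or more. The probe set behind these values is uncertain. Probe set numbers on this array follow chromosome and strand, so that 92.1% of neighbouring named probe sets share both, and none of the 8 nearest named neighbours of this one lies on chromosome 19 with Pgam1. Its second probe set, with all 8 on chromosome 19 and the same strand, correlated with it at 0.81 over 126 tumors and had a slope of 0.0248 ± 0.0154 (adjusted p = 0.204).

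Of the 3 genes that handle pyruvate and lactate, 3 rose in all tumors and 2 at 1 g or more, against 20.3% and 3.7% of all probe sets. Slc16a3, the lactate exporter MCT4, lay between 6.96 and 9.00 with a median of 7.72 under 1 g, and between 7.85 and 9.51 with a median of 8.80 at 8 g or more. Of the 15 light tumors 9 lay below every tumor of 8 g or more, and 5 of the 19 heavy ones above every light one. Its slope, the steepest of the 30, was 0.0887 ± 0.0157 log2 per g (adjusted p = 5.6e-06), or 1.36-fold per 5 g (1.22 to 1.51), and 0.0696 ± 0.0171 at 1 g or more (adjusted p = 0.00742).

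Ldha, lactate dehydrogenase A, had medians of 8.71 (7.87 to 9.35) under 1 g and 9.19 (8.39 to 9.50) at 8 g or more. The slope was 0.0434 ± 0.0091 (adjusted p = 9.01e-05) and at 1 g or more 0.0442 ± 0.0103 (adjusted p = 0.00603), so that the slope was nearly the same without the smallest tumors. Pdk1, the kinase that keeps pyruvate out of the mitochondrial cycle, rose in all tumors by 0.0423 ± 0.0140 per g (adjusted p = 0.0118). Its slope at 1 g or more was 0.0454 ± 0.0167 (adjusted p = 0.0713). Of the PFKFB enzymes, which set the level of the allosteric activator of phosphofructokinase, Pfkfb3 had a slope of 0.0313 ± 0.0166 (adjusted p = 0.130) and Pfkfb4 of 0.0130 ± 0.0098 (adjusted p = 0.310).

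**Figure D2:**
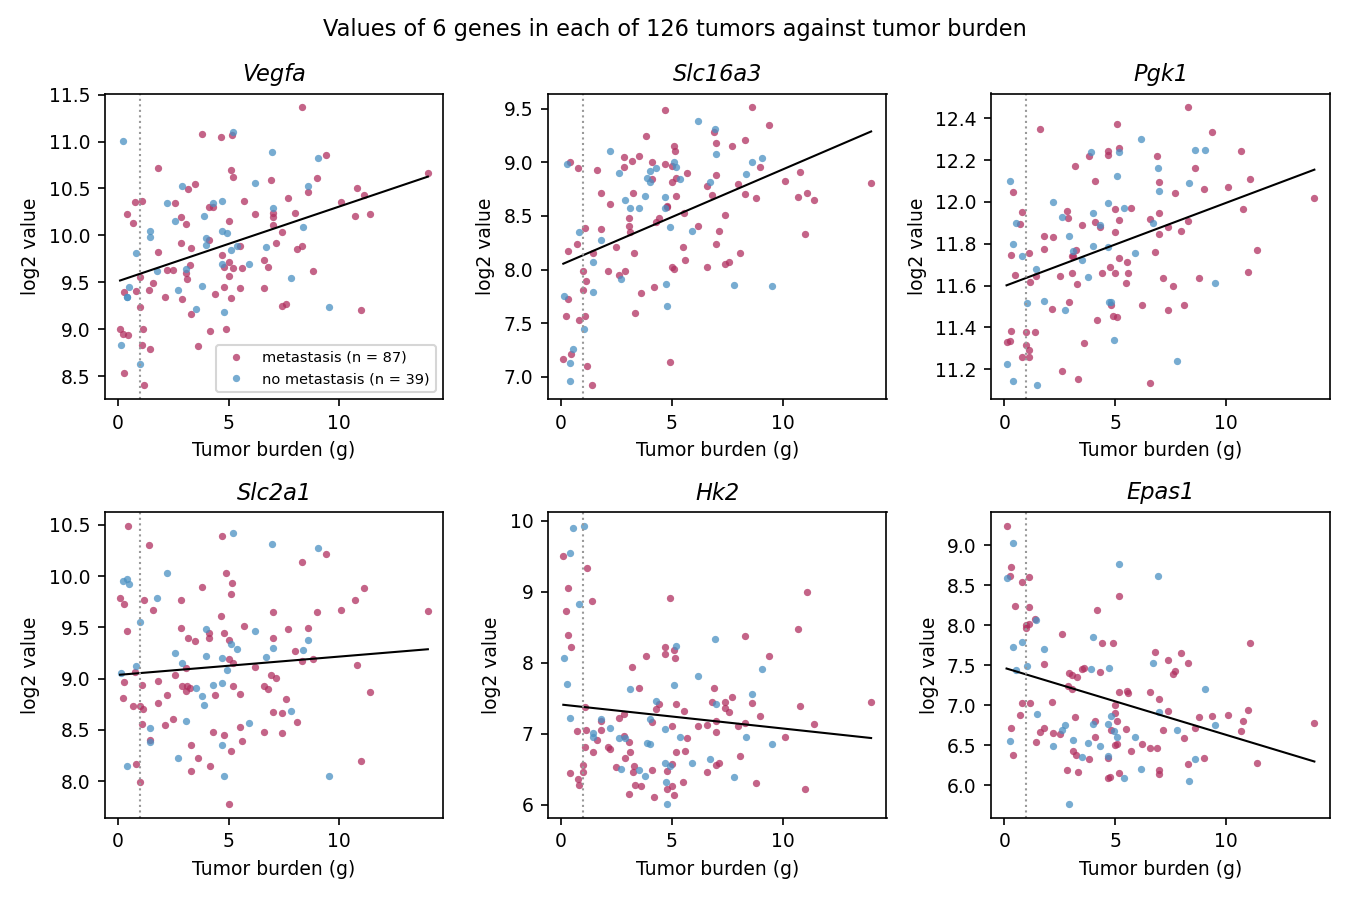
Log2 value (y axis) of 6 genes against tumor burden in g (x axis), 1 point per tumor, coloured by metastasis label, with the least-squares line over 126 tumors and a dotted line at 1 g. Vegfa, Slc16a3 and Pgk1 rose with wide scatter about the line, Slc2a1 was near level, and Hk2 and Epas1 had higher medians below 1 g (8.22 and 7.80) than above it (7.05 and 6.81).

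Of the HIF alpha subunits, Epas1 fell with burden and Hif1a did not pass. Hif1a, the widely expressed one, spanned 9.57 to 11.26 (median 10.61) under 1 g and 10.43 to 11.04 (median 10.66) at 8 g or more. Its slope was 0.0043 ± 0.0078 (adjusted p = 0.706), with a 95% confidence interval of -0.0112 to 0.0198 log2 per g. A second probe set of Hif1a, whose 8 nearest named neighbours all lie on the opposite strand of the same chromosome, rose by 0.0816 ± 0.0190 per g (adjusted p = 0.00037), with r = 0.06 to the first over the tumors. What transcript it reads was not tested.

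Epas1, which encodes HIF-2 alpha and is known for expression in endothelium, was lower in heavier tumors. Its values were 6.38 to 9.24 with a median of 7.80 under 1 g, and 6.05 to 7.78 with a median of 6.78 at 8 g or more. Of the 15 light tumors 8 lay above every tumor of 8 g or more. Its level fell by 0.0836 ± 0.0204 log2 per g (adjusted p = 0.000643), or 0.75-fold per 5 g (0.65 to 0.86). At 1 g or more it was -0.0486 ± 0.0215 (adjusted p = 0.138). Beside the slope, tumors under 1 g stood 0.618 ± 0.213 above the line (adjusted p = 0.0255), a step that did not pass without the array of N1202 (0.533, adjusted p = 0.0716). Across the 126 tumors Epas1 had r of 0.661 with the mean of the endothelial markers, 0.591 with smooth muscle, 0.525 with fibroblast and matrix and 0.523 with macrophage markers. It had 0.446 with the epithelial junction, 0.411 with the luminal prostate and -0.312 with the neuroendocrine mean. With burden, 6 of 12 endothelial, 9 of 9 smooth muscle, 7 of 9 fibroblast and matrix and 3 of 9 macrophage markers fell and none rose. Of all probe sets 16.4% fell and 20.3% rose. With the endothelial mean as a covariate the Epas1 slope was -0.0440 (adjusted p = 0.0420). With the epithelial junction mean as a covariate no member fell, so Epas1 did not pass. No fit held the smooth muscle, fibroblast and matrix, macrophage or luminal mean, and their part in the Epas1 values was not tested. In whole tumors, fewer cells of a type and less RNA per cell cannot be told apart.

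Of the 13 measured hypoxia response genes, 7 rose in all tumors and 6 at 1 g or more, against 20.3% and 3.7% of all probe sets. Vegfa, the growth factor that draws in blood vessels, ran from 8.53 to 11.01 with a median of 9.40 under 1 g, and from 9.21 to 11.36 with a median of 10.36 at 8 g or more. Of the 15 light tumors 13 lay below the median of the heavy ones, 5 of them below every heavy one. The slope was 0.0796 ± 0.0166 (adjusted p = 7.56e-05), or 1.32-fold per 5 g (1.18 to 1.48), and at 1 g or more 0.0761 ± 0.0188 (adjusted p = 0.00781).

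Bnip3, a mitochondrial protein that directs mitochondria to autophagy under hypoxia, had a median of 8.53 (7.41 to 9.92) under 1 g and 9.57 (7.69 to 10.86) at 8 g or more. The ranges overlapped widely, with 2 light tumors below every heavy one and 3 heavy tumors above every light one. Its slope was 0.0782 ± 0.0186 (adjusted p = 0.000477) in all tumors and 0.0729 ± 0.0211 (adjusted p = 0.0213) at 1 g or more. P4ha1, a subunit of the prolyl hydroxylase that matures collagen, rose by 0.0662 ± 0.0161 per g (adjusted p = 0.000601), with medians of 9.41 (7.91 to 10.45) and 9.97 (9.01 to 10.76). The related P4ha2 had 0.0106 ± 0.0144 (adjusted p = 0.598).

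Higd1a, a mitochondrial protein of the respiratory chain, Ddit4, an inhibitor of mTORC1, and Ndrg1, a stress-induced gene, completed the 6 that rose in both sets of tumors. Higd1a had medians of 8.84 (7.78 to 10.25) under 1 g and 9.63 (8.40 to 10.50) at 8 g or more, with a slope of 0.0590 ± 0.0139 (adjusted p = 0.000437). Ddit4 had medians of 8.23 (7.55 to 9.56) and 8.83 (7.68 to 9.75) and a slope of 0.0570 ± 0.0154 (adjusted p = 0.00198). Ndrg1 had medians of 8.98 (8.32 to 9.83) and 9.56 (8.71 to 10.30) and a slope of 0.0517 ± 0.0130 (adjusted p = 0.000945). Mxi1, a MYC antagonist, rose in all tumors by 0.0314 ± 0.0108 per g (adjusted p = 0.0149), and its slope at 1 g or more was 0.0348 ± 0.0122 (adjusted p = 0.0556).

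The other hypoxia response genes did not pass in either set. Egln3, a HIF prolyl hydroxylase and itself a HIF target, varied more than any other gene of the group, from 5.13 to 9.57, and had a slope of 0.0323 ± 0.0242 (adjusted p = 0.306). Adm, the vasodilator adrenomedullin, had 0.0487 ± 0.0207 (adjusted p = 0.0547). Kdm3a, a histone demethylase, and Bhlhe40, a transcriptional repressor, had slopes of 0.0074 ± 0.0100 and 0.0262 ± 0.0148 (adjusted p = 0.596 and 0.161).

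Car9, the carbonic anhydrase that is used as a tissue marker of hypoxia, depended on the probe set. The one with the highest mean had values of 5.57 to 6.95 and a slope of -0.0060 ± 0.0082 (adjusted p = 0.604), but all 8 of its nearest named neighbours lie on the strand opposite to Car9. The second probe set, whose 8 neighbours all lie on the strand of Car9, ranged from 4.33 to 7.20 and rose by 0.0471 ± 0.0128 per g (adjusted p = 0.00214), and by 0.0580 ± 0.0151 at 1 g or more (adjusted p = 0.0110). The first was kept under the rule of the highest mean, and r between them was 0.22. Mxi1 has a second probe set among neighbours of the opposite strand, which also rose, by 0.0650 ± 0.0158 (adjusted p = 0.000612).

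The mean z score of the 13 hypoxia response genes summarises the group per tumor. For Car9 the probe set with opposite-strand neighbours entered this mean. The median of the mean is given by weight class. It was -0.44 in tumors under 1 g (-0.96 to 1.35, n = 15) and -0.27 from 1 to under 4 g (-1.11 to 1.56, n = 40). It was 0.00 from 4 to under 8 g (-1.05 to 1.64, n = 52) and 0.61 at 8 g or more (-0.93 to 1.81, n = 19). The medians were ordered by weight, and every class held tumors with low and with high scores.

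**Figure D3:**
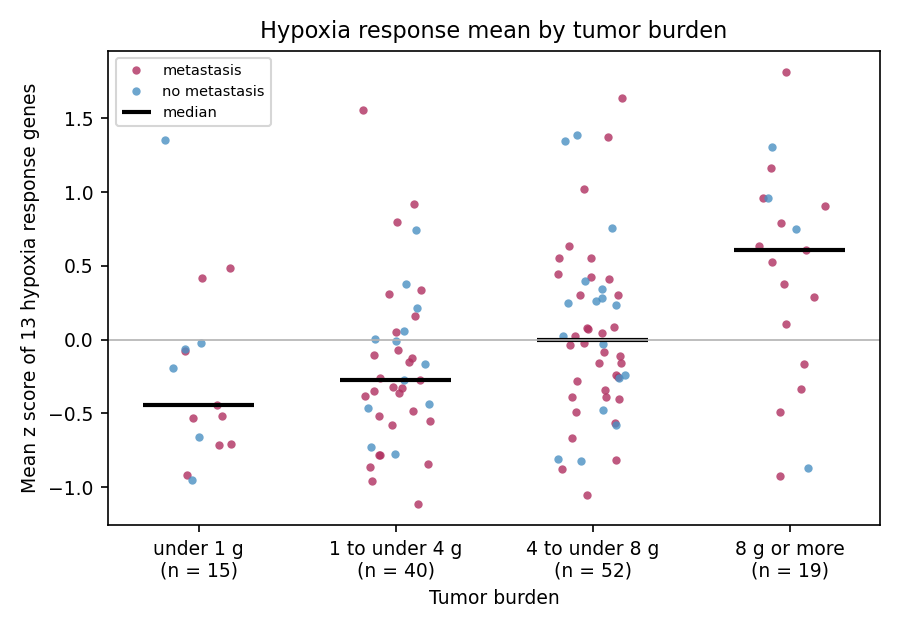
Mean z score of the 13 measured hypoxia response genes (y axis, SD units over 126 tumors) in 4 classes of tumor burden, 1 point per tumor, coloured by metastasis label, with the median as a bar. The medians ran from -0.44 under 1 g to 0.61 at 8 g or more, and the classes overlapped. Car9 was read from the probe set with opposite-strand neighbours.

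The slopes were also taken within ranges of tag number. They were above 0 for 27 of 30 members under tag 500 (median 0.0478), 26 from 500 to under 800 (0.0492), 27 from 800 to under 1000 (0.0372) and 19 at 1000 or more (0.0090). Over all tumors 59.1% of all probe sets had a slope above 0, and that share is not given within ranges. The median was lowest in the highest tag range, which holds the most males. Slc16a3 had slopes of 0.110, 0.128, 0.0678 and 0.0701 in that order, and Vegfa 0.1, 0.142, 0.0496 and 0.0400. Ndrg1 had 0.0746, 0.0899, 0.0586 and -0.0162, and Ddit4 0.0654, 0.0984, 0.0512 and 0.0007. Epas1 was below 0 in each range, with -0.0782, -0.110, -0.0797 and -0.0852. With tag range as a block, 17 members rose in all tumors, against 22% of all probe sets, and 14 at 1 g or more, against 5.02%.

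Markers of cell types and of differentiation moved with burden too, where 20.3% of all probe sets rose and 16.4% fell in all tumors. Of 15 epithelial junction markers 13 fell in all tumors and none rose, led by Cdh1, E-cadherin, at -0.313 ± 0.0427 log2 per g (adjusted p = 1.98e-07). Of 9 luminal prostate markers, which include Krt18 at a mean log2 value of 7.28, 8 fell, and of 13 neuroendocrine markers 10 rose, among them Chgb at 0.154 ± 0.0333 (adjusted p = 0.000132). The mean z score of the epithelial junction markers ranged from -0.45 to 2.53 (median 1.29) under 1 g and from -0.76 to 2.54 (median -0.35) at 1 g or more, and that of the neuroendocrine markers from -3.32 to 0.37 (median -0.19) and from -2.74 to 0.71 (median 0.20). All 9 cell cycle markers and all 9 smooth muscle markers passed, the former upward and the latter downward. In tumors of 1 g or more, 7 epithelial junction, 5 luminal and 8 smooth muscle markers fell, and 2 neuroendocrine and 1 cell cycle marker rose. There 4.54% of all probe sets fell and 3.7% rose.

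With the epithelial junction mean as a covariate, 1 member, Pgam1, passed in all tumors and in those of 1 g or more. Of all probe sets 0.234% rose in all tumors and 0.379% at 1 g or more. Pgam1 was read here from the probe set of uncertain place. Its second probe set did not pass without the covariate (limma, adjusted p = 0.204 in all tumors and 0.156 at 1 g or more). Of the 30 slopes 25 were above 0 with a median of 0.0309, and 15 had an unadjusted p under 0.05, against 13.2% of all probe sets. Pfkp, whose r with that mean was -0.71, changed sign to -0.0038. With the neuroendocrine mean 11 members rose, against 4.11% of all probe sets, and with the endothelial mean 16, against 11.4%. The part of cell composition in the slopes was not tested beyond these values.

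Members differed in how they followed these markers (r over 126 tumors, which share weight and tissue makeup). Pfkp, Slc16a3 and Higd1a went with the neuroendocrine mean (0.78, 0.63 and 0.57) and the cell cycle mean (0.65, 0.67 and 0.64) and against the epithelial junction mean (-0.71, -0.60 and -0.62). Hk2 went the other way, with 0.63 to the epithelial junction mean and -0.62 to the neuroendocrine mean. Slc2a1 had 0.29 and -0.30. Pgam1, Pfkl and Egln3 were near 0 on the epithelial junction mean (-0.04, -0.07 and 0.08), so that enzymes of the same chain differed in their r with these markers. Pgam1 was read here from the probe set of uncertain place.

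Other genes of the same pathways went both ways, and those named here are the ones of each list with the smallest p for burden. Of 17 other glycolysis genes with a probe set, 4 rose and 5 fell in all tumors, with a median slope of -0.0137. Of all probe sets 20.3% rose and 16.4% fell. Pdk2, another pyruvate dehydrogenase kinase, fell by 0.126 ± 0.0187 log2 per g (adjusted p = 3.7e-07), and Pfkm, the muscle phosphofructokinase, by 0.114 ± 0.0259 (adjusted p = 0.00026). Pfkfb2 and Slc2a4, the insulin-responsive transporter, had slopes of -0.0533 ± 0.0099 and -0.0540 ± 0.0140 (adjusted p = 1.26e-05 and 0.00132). None rose and 3 fell in tumors of 1 g or more, against 3.7% and 4.54% of all probe sets.

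Of 20 other hypoxia response genes, 6 rose and 6 fell, where 20.3% of all probe sets rose and 16.4% fell. Wsb1, a ubiquitin ligase subunit, rose by 0.0540 ± 0.0097 (adjusted p = 7.77e-06) and Car12, a membrane carbonic anhydrase, by 0.116 ± 0.0325 (adjusted p = 0.00288). Tmem45a fell by 0.170 ± 0.0310 (adjusted p = 8.71e-06), and Cited2, which competes with HIF for its coactivator, had a slope of -0.0736 ± 0.0151 (adjusted p = 6.12e-05). At 1 g or more the count was 2 up and 2 down, against 3.7% and 4.54% of all probe sets. Among 11 regulators of HIF, 4 rose, including Vhl with 0.0212 ± 0.0066 (adjusted p = 0.00771), and 3 fell, including the coactivators Ep300 (-0.0230 ± 0.0053, adjusted p = 0.000316) and Crebbp (-0.0182 ± 0.0054, adjusted p = 0.005).

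No gene passed the threshold by metastasis. None of 30 was called between 87 tumors of males with metastasis and 39 without (limma, 0% of 23507 probe sets), and neither the methods' t-test nor limma on ranks called any. At an unadjusted p under 0.05 there was 1 of 30 members and 874 probe sets (3.72%) with limma, and 882 probe sets (3.75%) with the t-test. That member was Pgam1, with 8.98 to 11.18 (median 9.86) with metastasis and 9.34 to 10.88 (median 10.07) without, a difference of -0.174 ± 0.077 log2 (unadjusted p = 0.0252, adjusted p = 0.985). The range without metastasis lay inside the range with it. These values come from the Pgam1 probe set of uncertain place. The second Pgam1 probe set, with all 8 neighbours on the chromosome and strand of Pgam1, differed by -0.0579 ± 0.1006 (limma, unadjusted p = 0.566).

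Among the genes that rose with burden, Vegfa had a median of 9.85 (8.40 to 11.36) with and 9.89 (8.62 to 11.11) without metastasis, a difference of -0.0655 with a 95% confidence interval of -0.296 to 0.165. Slc16a3 differed by 0.0049 (-0.220 to 0.230) and Bnip3 by -0.0314 (-0.286 to 0.223). For Hk2 the interval was -0.455 to 0.187 and for Egln3 -0.473 to 0.150, so that a difference within these bounds could not be told from none. The difference was below 0 for 21 of the 30 members, with a median of -0.0446. Of all probe sets 51.9% were above 0, with a median of 0.0024. The members were correlated with each other, so their signs are not independent.

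**Figure D4:**
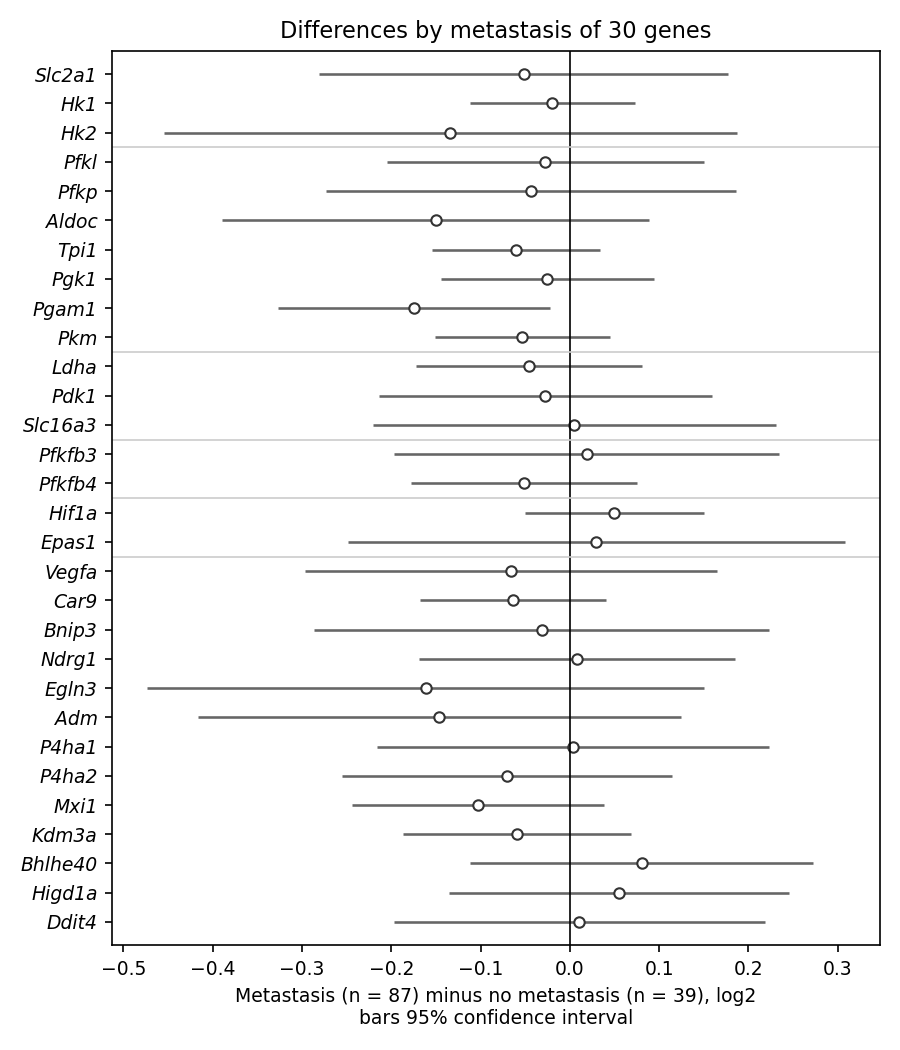
Difference in log2 value between tumors of males with and without metastasis (x axis) for 30 genes, with its 95% confidence interval, ordered by role as in the plot of slopes. Every interval but that of Pgam1 holds 0, and no gene passed the adjusted threshold.

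Burden slopes within the 2 metastasis groups were above 0 for 25 of 30 members with metastasis (median 0.0377) and 24 without (0.0420). The share of all probe sets above 0 was 59.1% over all tumors and is not given within these groups. The interaction of burden and metastasis passed for none (limma, 0% of all probe sets). At an unadjusted p under 0.05 (limma) there were 3 of 30 members, Hk1, Hk2 and Hif1a, and 3180 probe sets (13.5%). Hk2 had slopes of -0.0026 with and -0.126 without metastasis, an interaction of 0.124 ± 0.0582 (unadjusted p = 0.0354, adjusted p = 0.335). Slc16a3 had 0.0822 and 0.113, and Vegfa 0.0849 and 0.0707.

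Members were correlated with each other across tumors more than probe sets in general. Over 435 pairs and 126 tumors the median r was 0.337, with 31.3% of pairs above 0.5, where all probe sets had a median of 0.00 and 2.55% above 0.5. The glycolytic enzymes had a median of 0.609 among themselves, the hypoxia response genes 0.429, and pairs across these groups 0.428. The tumors share weight and tissue makeup, and on residuals from the burden slope the median over all pairs was 0.316. It was 0.373 at 1 g or more, 0.340 with metastasis and 0.336 without.

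Pgk1 and Ldha had the highest r, 0.886 (Spearman's rho 0.905), followed by Pgk1 with Bnip3 at 0.868, Bnip3 with P4ha1 at 0.855 and Ldha with Bnip3 at 0.848. Bnip3 had the highest median r to the other 29, at 0.605, and was above 0.5 with 19 of them, as was Vegfa (0.585). Slc2a1 had its highest r with other members, 0.700 to Pgam1, 0.674 to Egln3 and to Pfkl and 0.637 to Hk2. For Pgam1 this refers to the probe set of uncertain place. Slc2a1 had 0.594 to Pgk1, 0.561 to Ldha and 0.508 to Bnip3. Hk2 had a median r of 0.139 and was above 0.5 with 1 member, Slc2a1.

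The HIF alpha subunits had low r to the rest. Hif1a had a median r of -0.008 to the other members, with 0.153 to Bhlhe40 as its highest among the hypoxia response genes and -0.390 to Mxi1 as its lowest. Epas1 had a median of -0.187, with -0.495 to Higd1a, -0.469 to Slc16a3 and -0.447 to Bnip3. Pfkfb4 and Car9 were at 0.022 and -0.088. For Car9 this refers to the probe set with opposite-strand neighbours.

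**Figure D5:**
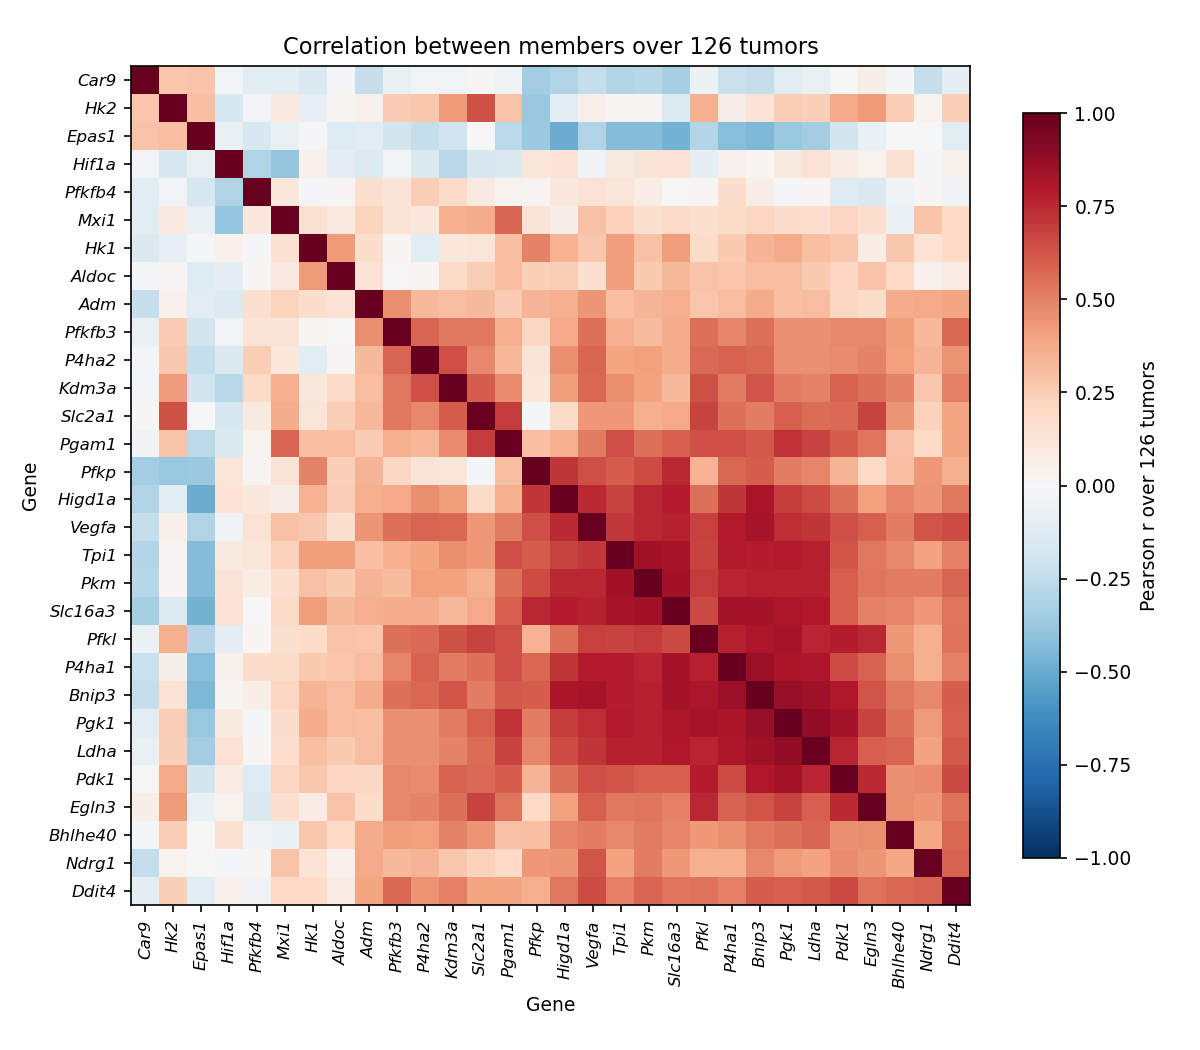
Pearson's r between each pair of 30 genes over 126 tumors, coloured from -1 (blue) to 1 (red), in clustered order on both axes. A block around Pgk1, Ldha and Bnip3 is red, reaching 0.886, and Epas1 is blue against it, down to -0.495.

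Of 20610 other genes, those most like the hypoxia response mean over the 126 tumors were Ak4, a mitochondrial adenylate kinase (r = 0.795, rho = 0.830), Ero1a, an oxidase of the endoplasmic reticulum (0.785, 0.795), and Fam162a (0.763, 0.747). Ciart, Mgarp, Tbl2, Prelid2, Mmp12, Rlf and Kdm4b followed, with r of 0.718 to 0.642. In tumors of 1 g or more these 10 had r of 0.628 to 0.808. Most like Slc2a1 was Gys1, glycogen synthase, at 0.744 (rho = 0.763), then Fam162a at 0.682 and Alkbh5, an RNA demethylase, at 0.673. The chaperone genes Hspa5 (0.618), Hspa1a (0.609), Sdf2l1 (0.559) and Hspa1b (0.554) were also among the 10 nearest to Slc2a1, with Grhpr, Ero1a and Map2k1. Fam162a and Ero1a were on both lists, and Fam162a, Ero1a and Kdm4b belong to the list of other hypoxia response genes.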

How the data were processed

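Expression was measured in 126 F2 prostate tumors with 1 Affymetrix Mouse Gene 2.0 ST array each. The authors deposited log2 values, made from the scans in Partek (version not given in the sources used here) by RMA: background correction, quantile normalization and a summary per probe set. RMA pulls the arrays to one distribution, so levels are relative to the whole array, and probe levels of different genes cannot be compared. The labels gave burden and metastasis.

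Probe sets were named by platform annotation: 23521 of 41345 had 1 symbol, 1820 several and 16004 none. Genes with several were read from the highest mean. Tests covered 23507 named probe sets with a mean at or above the 10th percentile (3.42 log2). limma 3.58.1 (lmFit, eBayes) in R 4.3.3 fitted burden in g, metastasis, their interaction, or burden and an indicator for tumors under 1 g, with Benjamini-Hochberg adjustment over all and a threshold of 0.05. The fits were checked on simulated data. Correlations between genes and with marker means carry no p. The Pearson and rank correlations with burden, run as alternatives, were called by an ordinary t-test with the same adjustment. Python 3.11.15, numpy 2.4.6, pandas 2.3.3, scipy 1.17.1 and matplotlib 3.10.9 made tables and figures. Marker means are of z scores.

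The members, lists and tests were chosen with earlier results of these data known. Named beside the members were up to 4 genes per list with the smallest p for burden, and the 10 genes most like the hypoxia mean and Slc2a1. The alternatives were the methods' tests, ranks, log2 of burden, filters at none or the 25th percentile, median centring, quantile normalization, tag range as a block, covariates, another probe set, another weight limit, and leaving out extreme mice or N1202. The number of arrays limits the precision.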

Additional observations from a re-analysis of the deposited data

How the results depend on the processing

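In all tumors 16 or 17 members rose with burden under the methods' Pearson correlation, ranks, log2 of burden, either filter, median centring, quantile normalization, tag range as a block, metastasis or the endothelial mean as a covariate, and without the 2 mice of most extreme burden or without N1202. Of all probe sets 11.4% to 27.8% rose under these settings, lowest with the endothelial mean and highest with log2 of burden. At 1 g or more 11 to 15 rose under ranks, log2 of burden, median centring, the tag block and without those 2 mice. There 2.46% (ranks) to 9.31% (log2 of burden) of all probe sets rose. With the neuroendocrine mean 11 rose in all tumors, against 4.11% of all probe sets. With the epithelial junction mean 1 rose and 0 fell in all tumors, against 0.234% and 0.204% of all probe sets, and Pfkp had -0.0038. At 1 g or more 1 rose, against 0.379%. Genome-wide 55 probe sets rose and 48 fell under that covariate in all tumors. With log2 of burden 2 fell in all tumors and 1 at 1 g or more, against 20.7% and 9.87% of all probe sets. With the second probe set Car9 rose by 0.0471 and Hif1a by 0.0816 (limma, adjusted p = 0.00214 and 0.00037). The second Hif1a probe set lies among neighbours of the opposite strand. Pgam1 did not pass with its second probe set (0.0248, limma, adjusted p = 0.204). Mxi1 and Ndrg1 rose with either probe set, and Slc2a1 passed with neither. At 2 g or more (n = 96), 0 members rose by limma, as did 0 of 23507 probe sets, and 9 members had an unadjusted p under 0.05, with 26 of 30 slopes above 0 and a median of 0.0268. The range of burden is narrower there, the tumors fewer and the median slope lower than the 0.0379 at 1 g or more. The part of each in the loss of calls was not tested. Of the 2 members higher under 1 g, 1 passed with tag range as a block and 1 without N1202, against 8.37% and 9.18% of all probe sets. Epas1 was the one lost (limma, 0.583, adjusted p = 0.0513, and 0.533, adjusted p = 0.0716). No member was called by metastasis or by its interaction with burden under the alternatives run, although 3 of all probe sets passed for the interaction with the tag block. The median r between members lay between 0.316 and 0.355 under residuals, centring and without N1202. No paired analysis was possible because each mouse gave 1 tumor. Burden and tissue makeup moved together in these tumors. Age at collection is not in the labels, and the paper reports a younger age of death in F2 males with larger primary tumors. Burden, age and tissue makeup cannot be told apart by the labels.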

Other observations

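Of 23 subunits of oxidative phosphorylation, 6 rose with burden in all tumors and none fell (limma), where 20.3% of all probe sets rose and 16.4% fell. Slopes were above 0 for 21 of the 23 subunits and for 59.1% of all probe sets. Ndufv2 of complex I rose by 0.0145 ± 0.0044 log2 per g (adjusted p = 0.0062), Uqcrfs1 of complex III by 0.0203 ± 0.0064 (adjusted p = 0.00761) and Atp5a1 of ATP synthase by 0.0099 ± 0.0036 (adjusted p = 0.021). At 1 g or more 1 subunit, Uqcrfs1, rose, against 3.7% of all probe sets. Of 16 genes of the citric acid cycle, 4 rose and 1 fell: Mdh2 rose by 0.0176 ± 0.0049 (adjusted p = 0.00257) and Suclg2 had -0.0994 ± 0.0289 (adjusted p = 0.00406). All 6 of the subunits that rose, and Mdh2, had slopes below those of Pkm and Ldha.

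Of 7 gluconeogenesis genes 1 passed, downward. Of all probe sets 20.3% rose and 16.4% fell in all tumors, and 3.7% rose and 4.54% fell at 1 g or more. Fbp1, fructose bisphosphatase, which runs against phosphofructokinase, had a slope of -0.234 ± 0.0395 log2 per g in all tumors (adjusted p = 2.48e-06) and -0.161 ± 0.039 at 1 g or more (adjusted p = 0.00706), larger in size than that of any of the 30 genes above. Of 5 genes of the pentose phosphate pathway, Rpia rose by 0.0201 ± 0.0073 (adjusted p = 0.0224) and Pgd had -0.0200 ± 0.0071 (adjusted p = 0.0198), and none passed at 1 g or more.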
